A study of Saccharomyces cerevisiae with 4 samples.

Results

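Budding yeast (Saccharomyces cerevisiae) lacking LOC1 was compared with wild type, and the genes described here are the 34 that make and use glutathione, run the thioredoxin system and remove peroxides and superoxide. They were taken by systematic name from a table of 6207 gene rows. The list holds enzymes of glutathione synthesis and reduction, glutathione transferases, glutaredoxins, thioredoxins and their reductases, peroxiredoxins, catalases, superoxide dismutases, peroxidases, the regulators YAP1 and SKN7, and the vacuolar pump YCF1. All 34 had a value on all 4 arrays, and no filter on low values was applied.

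The study measured mRNA on 4 microarrays of 2 colours, each with RNA of a knockout culture (strain PSY3262) in one channel and RNA of a wild-type culture (strain PSY3259) in the other. The 4 arrays were biological replicates, with the knockout in the Cy5 channel of arrays 1 and 4 and in the Cy3 channel of arrays 2 and 3. Both strains were grown as 50 mL cultures in YPD, a rich glucose medium, at 30 °C to early log phase (optical density 0.2 to 0.4), with no further treatment. For the wild-type channel of array 4 the strain tag names the knockout strain and the source description names wild type, and the description was followed. The labels do not name other alleles or markers of the strains, nor say whether each strain was 1 clone.

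Values are the authors' deposited log ratios, called log units below. The labels do not state their base. Base 10 was taken from the values, which end exactly at a size of 2, so folds are given "if base 10". Each array was turned so that LOC1 lay below 0, and a positive value is read as higher in the knockout. LOC1, which encodes a nuclear RNA-binding protein of large ribosomal subunit assembly and of ASH1 mRNA localization, then had -1.20, -0.972, -1.07 and -1.31 on arrays 1 to 4. Its sign was set by the turning and its size was the measurement, and the labels do not say whether the deletion takes in its probe. The dye labels do not settle this direction. As deposited, arrays 1 and 4, of the same labelled orientation, correlated at r = -0.773 across 6178 genes, and arrays 2 and 3, also of 1 labelled orientation, at r = -0.712. Of opposite labelled orientation, arrays 1 and 3 correlated at 0.758, 2 and 4 at 0.653, 1 and 2 at -0.763 and 3 and 4 at -0.847. LOC1 was left out of these coefficients. Its turning reversed arrays 2 and 4, after which every pair correlates positively. The direction common to the 4 arrays is not set by this. Genes are not independent replicates, and these coefficients describe the arrays only. Under the opposite direction all rises and falls below would change places.

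Cells keep thiols reduced through a pair of parallel systems. Glutathione, a tripeptide, is made by Gsh1 and Gsh2, is kept reduced by Glr1 with NADPH, and serves glutaredoxins, glutathione transferases and the pump Ycf1. Thioredoxins are kept reduced by thioredoxin reductase, also with NADPH, and in turn reduce the peroxiredoxins that break down peroxides. The transcription factor Yap1, which collects in the nucleus when peroxides or thiol-reactive compounds oxidize it, switches on many of these genes, in part together with Skn7.

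Of the 34 genes, 15 fell and 6 rose past an adjusted p of 0.05 in limma, fitted and adjusted over 6205 genes, and 13 did not pass. Over all genes tested, 21.7% were called lower and 22.5% higher (44.2% in either direction), against 44.1% lower and 17.6% higher among the 34. The median log ratio of the 34 was -0.0425, beside 0.0019 for all genes tested. It was -0.0247 without replicate 1 and -0.0665 without replicate 2. The members were chosen with earlier results of these data known, so these shares describe the list and were not tested. On arrays 1 to 4 the median of the 34 was -0.0961, -0.0237, -0.0542 and -0.0674, so it lay below 0 on each and nearest to 0 on array 2. Each of the 21 called genes had the same sign on all 4 arrays, and each of the 13 others had mixed signs. Among all genes tested, 3505 of 6205 had 1 sign on all 4 arrays. With the sign turned, 15 would be higher and 6 lower. Without replicate 3, 3 rose and 14 fell, and on arrays 1 and 2 alone 1 rose and 8 fell. Shares over all genes are not given for these 2 settings, so a loss of calls among the 34 cannot be told apart from a loss over all genes. Turned by the dye labels, 0 of the 34 passed in limma (0 also at an unadjusted p under 0.05), and 1 of all genes tested passed. The class counts below come from few genes each and stand beside 21.7% lower and 22.5% higher over all genes tested. Where a class or list below has 0 rises or 0 falls in limma, the count at an unadjusted p under 0.05 was also 0. An RNA ratio from a whole culture cannot tell fewer cells that express a gene apart from less RNA per cell.

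**Figure D1:**
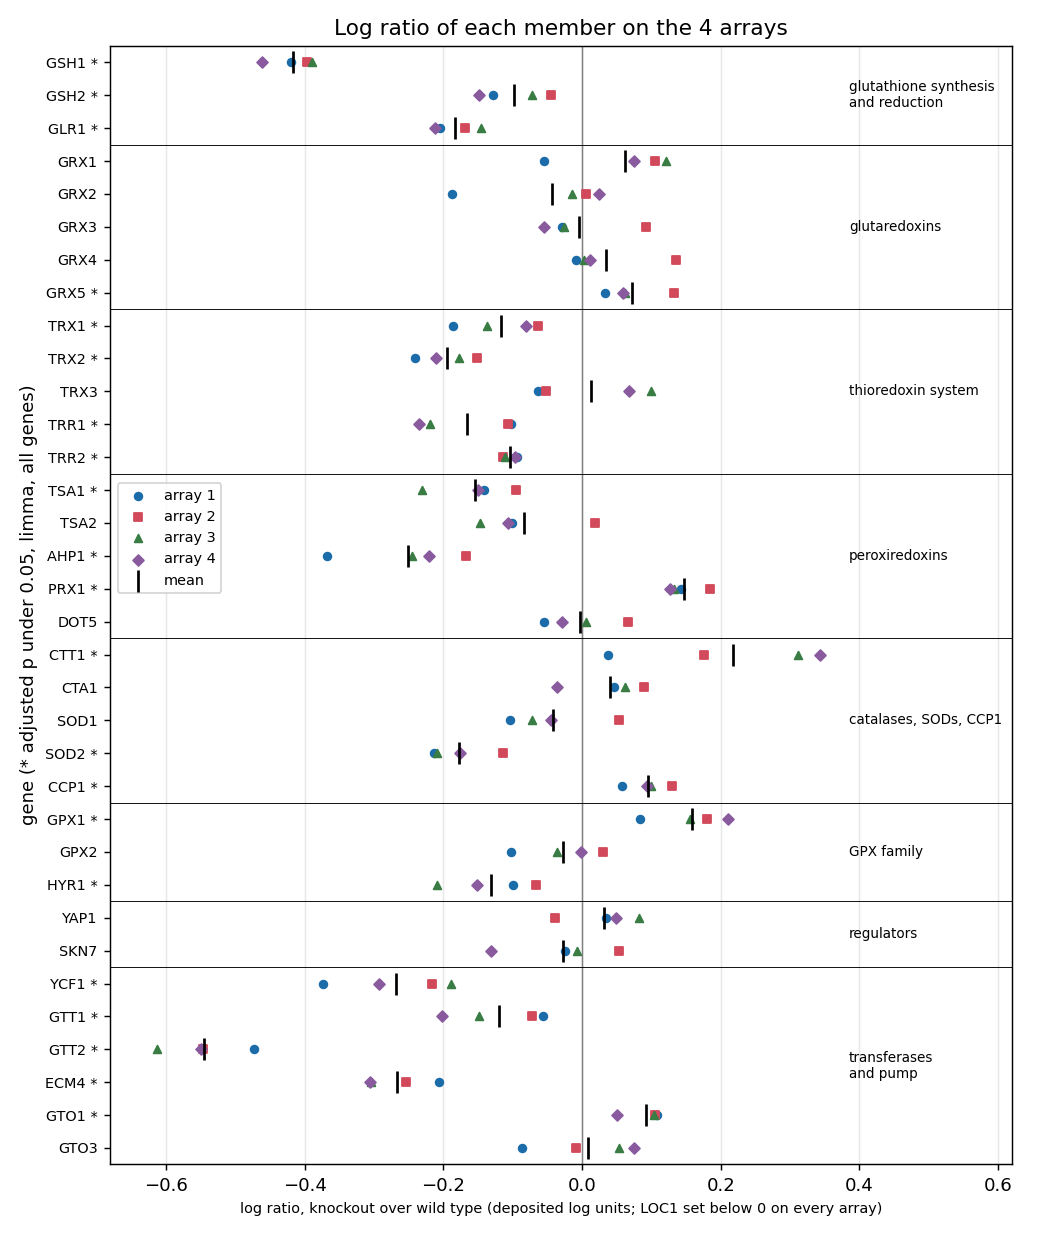
Log ratio of each of the 34 genes on arrays 1 to 4 (points, deposited log units, knockout over wild type with LOC1 set below 0) and the mean of the 4 (black bar), by enzyme class; an asterisk marks adjusted p under 0.05 in limma over all genes. GSH1 and GTT2 lie farthest below 0, at means of -0.417 and -0.545, and CTT1 farthest above, at 0.217.

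All 3 genes of glutathione synthesis and reduction fell. GSH1 (YJL101C), which encodes the rate-limiting glutamate-cysteine ligase, had -0.419, -0.397, -0.390 and -0.462 on arrays 1 to 4. Its mean was -0.417 ± 0.0325 log units (SD, n = 4), 2.61-fold lower if base 10, with adjusted p = 2.7e-05 in limma, and it ranked 50 from the lowest of the 6205 genes tested. Its 4 values stood close together, far below 0. GLR1 (YPL091W), the glutathione reductase of the cytosol and mitochondria, had -0.205, -0.169, -0.146 and -0.212, a mean of -0.183 ± 0.0313 (adjusted p = 0.00076 in limma). GSH2 (YOL049W), the glutathione synthetase of the next step, had the smaller values of -0.128, -0.0443, -0.0722 and -0.149, with a mean of -0.0984 ± 0.0485 and adjusted p = 0.016. Its call did not hold without replicate 1 (-0.0886, adjusted p = 0.0669 in limma) and without replicate 4 (-0.0815, adjusted p = 0.0729). Within each array GSH1 lay below GSH2, with differences from -0.353 to -0.291 log units and a mean of -0.319 ± 0.0255 (SD, n = 4).

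Among the genes that use glutathione to detoxify other compounds, 4 of 6 fell and 1 rose. GTT2 (YLL060C), a glutathione transferase, had -0.473, -0.547, -0.613 and -0.549 on arrays 1 to 4, 3.51-fold lower if base 10 on average. With a mean of -0.545 ± 0.0572 (adjusted p = 1.8e-05 in limma) it had the deepest fall of the 34 and ranked 30 from the lowest of all genes tested. YCF1 (YDR135C) encodes the vacuolar transporter that pumps glutathione conjugates and the cadmium-glutathione complex out of the cytosol. Its values were -0.373, -0.217, -0.189 and -0.293, with a mean of -0.268 ± 0.0828 (SD, n = 4; 1.85-fold lower if base 10; adjusted p = 0.00068 in limma). ECM4 (YKR076W), an omega-class glutathione transferase of the cytosol, had -0.206, -0.254, -0.304 and -0.306, and a mean of -0.267 ± 0.0474 (adjusted p = 0.00023). YCF1 was lowest on array 1 and ECM4 nearest to 0 there, and both lay below 0 on all 4 arrays. GTT1 (YIR038C), the transferase associated with the endoplasmic reticulum, had -0.0568, -0.0723, -0.148 and -0.202, a mean of -0.120 ± 0.0677 (adjusted p = 0.013). Its call was lost without replicate 3 (-0.110, adjusted p = 0.0574 in limma) and without replicate 4 (-0.0923, adjusted p = 0.0541).

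The peroxisomal omega-class transferase GTO1 (YGR154C) went the other way from ECM4, with 0.108, 0.105, 0.104 and 0.0508 on arrays 1 to 4. Its mean of 0.0919 ± 0.0274 passed at adjusted p = 0.013 in limma, and the call was lost without replicate 3 (0.0877, adjusted p = 0.0598). The cytosolic GTO3 (YMR251W) had a mean of 0.0085 ± 0.0723 and did not pass. ECM4 minus GTO1 was -0.359 ± 0.0387 log units and ECM4 minus GTO3 was -0.276 ± 0.120, both below 0 on all 4 arrays. GTT1 minus GTT2 was 0.426 ± 0.0583, between 0.347 and 0.475 on single arrays.

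In the thioredoxin system 4 of 5 genes fell and 0 rose. TRX2 (YGR209C), a cytosolic thioredoxin and well-known Yap1 target, had -0.240, -0.151, -0.178 and -0.210. Its mean was -0.195 ± 0.0388 (SD, n = 4; 1.57-fold lower if base 10; adjusted p = 0.00072 in limma). TRX1 (YLR043C), the other cytosolic thioredoxin, had -0.185, -0.0638, -0.137 and -0.0804, a mean of -0.117 ± 0.0556 (adjusted p = 0.0099). TRX2 lay below TRX1 on every array, and TRX1 minus TRX2 was 0.0780 ± 0.0394. TRR1 (YDR353W), the cytosolic thioredoxin reductase, had -0.102, -0.106, -0.219 and -0.235, with a mean of -0.166 ± 0.0714 (adjusted p = 0.0037). Its values on arrays 3 and 4 lay below those on arrays 1 and 2. TRR2 (YHR106W), the mitochondrial reductase, had -0.0932, -0.114, -0.112 and -0.0959, a mean of -0.104 ± 0.0108 (adjusted p = 0.0061), the smallest SD of the 34. The mitochondrial thioredoxin TRX3 (YCR083W) did not pass: it had -0.0641 and -0.0518 on arrays 1 and 2 and 0.0990 and 0.0682 on arrays 3 and 4.

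Of the 5 peroxiredoxin genes 2 fell and 1 rose. AHP1 (YLR109W), a cytosolic peroxiredoxin that prefers alkyl hydroperoxides, had -0.368, -0.167, -0.245 and -0.220, a mean of -0.250 ± 0.0851 (1.78-fold lower if base 10; adjusted p = 0.00096 in limma). TSA1 (YML028W), the major cytosolic peroxiredoxin, had -0.141, -0.0956, -0.231 and -0.150, and a mean of -0.155 ± 0.0563 (adjusted p = 0.0031). Its close relative TSA2 (YDR453C) had -0.101, 0.0187, -0.148 and -0.106. The mean of TSA2, -0.0839 ± 0.0716, missed the threshold at adjusted p = 0.0543 and passed without replicate 2 (-0.118, adjusted p = 0.00999 in limma) and with the arrays centred on their medians (-0.0857, adjusted p = 0.0436). PRX1 (YBL064C), the mitochondrial peroxiredoxin, rose on all 4 arrays, with 0.143, 0.185, 0.133 and 0.127 and a mean of 0.147 ± 0.0263 (1.40-fold higher if base 10; adjusted p = 0.0017). The nuclear DOT5 (YIL010W) had a mean of -0.0028 ± 0.0525 and did not pass.

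Catalases, superoxide dismutases and cytochrome c peroxidase gave 2 rises and 1 fall among 5 genes. CTT1 (YGR088W), the cytosolic catalase induced by general stress, had 0.0378, 0.176, 0.311 and 0.343, and with a mean of 0.217 ± 0.140 (1.65-fold higher if base 10; adjusted p = 0.0081 in limma) it was the largest rise of the 34. Its SD was also the largest: the mean was 0.107 over arrays 1 and 2 and 0.327 over arrays 3 and 4. The peroxisomal catalase CTA1 (YDR256C) had a mean of 0.0405 ± 0.0540 and did not pass. CCP1 (YKR066C), the cytochrome c peroxidase of the mitochondrial intermembrane space, had 0.0583, 0.130, 0.0995 and 0.0937, a mean of 0.0953 ± 0.0293 (adjusted p = 0.011). That call did not hold without replicate 3 (0.0939, adjusted p = 0.0504).

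SOD2 (YHR008C), the manganese superoxide dismutase of the mitochondrial matrix, had -0.214, -0.113, -0.209 and -0.175, a mean of -0.178 ± 0.0464 (1.51-fold lower if base 10; adjusted p = 0.0012 in limma). SOD1 (YJR104C), the copper-zinc enzyme of the cytosol, had -0.104, 0.0533, -0.0727 and -0.0440. Its mean of -0.0419 ± 0.0681 did not pass, and its 95% interval ran from -0.110 to 0.0264. SOD1 minus SOD2 was 0.136 ± 0.0235, above 0 on all 4 arrays.

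The 3 genes of the glutathione peroxidase family moved apart. GPX1 (YKL026C) had 0.0838, 0.180, 0.156 and 0.211, a mean of 0.158 ± 0.0542 (1.44-fold higher if base 10; adjusted p = 0.0027 in limma). HYR1 (YIR037W), also called GPX3, encodes the peroxide sensor that passes oxidation on to Yap1. It had -0.0990, -0.0669, -0.209 and -0.152, a mean of -0.132 ± 0.0625 (1.35-fold lower if base 10; adjusted p = 0.0075). GPX1 minus HYR1 was 0.290 ± 0.0902, between 0.183 and 0.366 on single arrays. GPX2 (YBR244W) had a mean of -0.0270 ± 0.0569 and did not pass. HYR1 and GTT1 are neighbouring genes in the RefSeq annotation and both fell. GTO1, which rose, lies next to CYS4, a gene of cysteine synthesis that fell, at -0.120 ± 0.0868.

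Of the 5 glutaredoxin genes 1 rose and 0 fell. GRX5 (YPL059W), the mitochondrial glutaredoxin of iron-sulfur cluster assembly, had 0.0334, 0.133, 0.0627 and 0.0586. Its mean of 0.0720 ± 0.0428 passed narrowly, at adjusted p = 0.0463 in limma, and the call was lost without any 1 of the arrays (adjusted p = 0.0617 to 0.138). GRX1 (YCL035C), one of the classical glutaredoxins of the cytosol, had -0.0541, 0.105, 0.121 and 0.0756. Its mean of 0.0621 ± 0.0798 did not pass on all 4 arrays and passed without replicate 1 (0.101, adjusted p = 0.0285 in limma). GRX2 (YDR513W), the other classical one, had -0.188 on array 1 and between -0.0150 and 0.0251 on the others. The nuclear pair GRX3 (YDR098C) and GRX4 (YER174C), which take part in iron sensing, had means of -0.0043 ± 0.0658 and 0.0352 ± 0.0673 and did not pass. GRX2, GRX3 and GRX4 had 95% intervals that together ran from -0.128 to 0.103.

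Neither regulator passed. YAP1 (YML007W) had 0.0346, -0.0393, 0.0824 and 0.0495 on arrays 1 to 4, a mean of 0.0318 ± 0.0515 (adjusted p = 0.35 in limma) with a 95% interval of -0.0289 to 0.0925. SKN7 (YHR206W) had -0.0241, 0.0538, -0.0071 and -0.132, a mean of -0.0272 ± 0.0771 (adjusted p = 0.51), with an interval of -0.100 to 0.0457. Both genes lay on either side of 0. These are mRNA ratios, and Yap1 is controlled mainly through the location and oxidation of the protein, which the arrays do not measure.

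Compartments were assigned from textbook knowledge. Of 14 genes of cytosolic products 9 fell and 1, CTT1, rose, with a median of -0.124. Of 6 mitochondrial genes 3 rose (PRX1, CCP1 and GRX5) and 2 fell (SOD2 and TRR2), with a median of 0.0424 and per-array medians of -0.0154, 0.0390, 0.0808 and 0.0634. The call of GRX5 was lost without any 1 of the arrays and that of CCP1 without replicate 3. Among the cytosolic genes, that of GSH2 was lost without replicate 1 or 4. GLR1, whose product lies in the cytosol and mitochondria, was counted under several places, so the counts and medians depend on the assignment. The pair of peroxisomal genes, CTA1 and GTO1, had means of 0.0405 and 0.0919. None of the 5 genes assigned to the nucleus (GRX3, GRX4, DOT5, YAP1 and SKN7) passed in limma, including at an unadjusted p under 0.05. YAP1 was placed there although its product collects in the nucleus when oxidized, and locations were not measured. Genes whose products lie in several places or in the endoplasmic reticulum gave 3 falls (GTT2, GLR1 and GTT1) and 1 rise (GPX1) among 6. Over all genes tested, 21.7% were called lower and 22.5% higher. The difference between compartments was not tested, since members are not replicates.

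**Figure D2:**
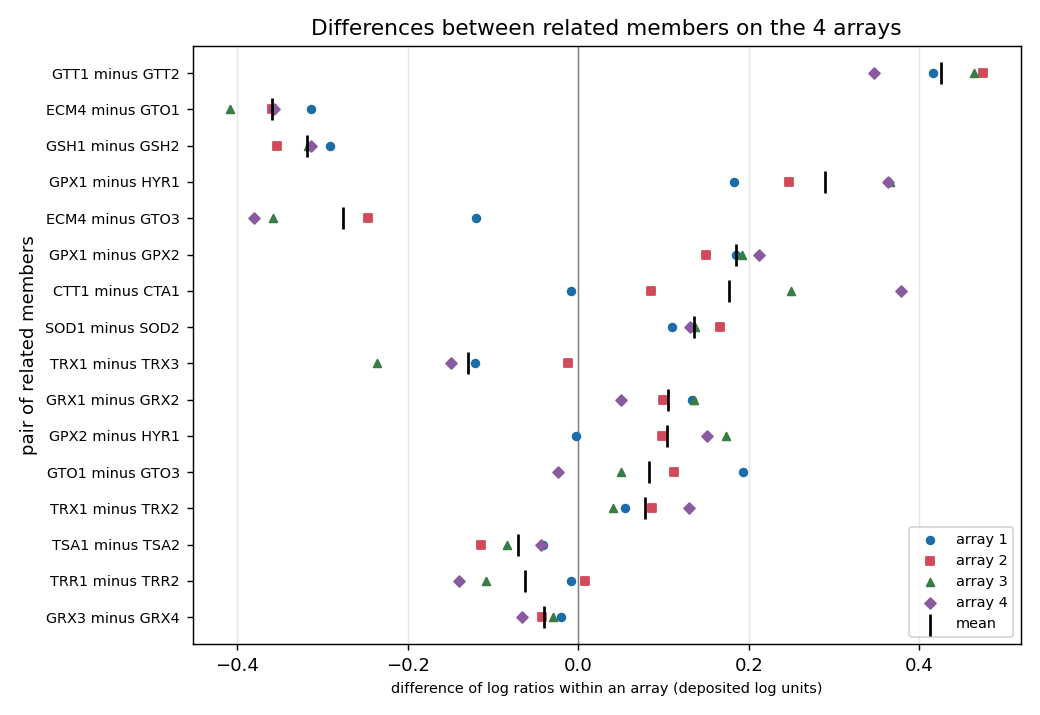
Difference of log ratios within each array (points, deposited log units) and its mean (black bar) for 16 pairs of related members. GTT1 minus GTT2, ECM4 minus GTO1 and GSH1 minus GSH2 have the largest means, at 0.426, -0.359 and -0.319.

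The 16 pairs of related genes were compared within arrays, where a shift of a whole array cancels. In 12 of the 16 the difference had the same sign on all 4 arrays, which is the most that 4 arrays can show: 2 of the 16 possible sign patterns are as extreme. The exact two-sided sign-flip test then gives p = 0.167 after adjustment over the 16 pairs, so no pair could pass a threshold of 0.05 by this test, and the sizes are given with their SDs. Having 1 sign on all 4 arrays was common among single genes (3505 of 6205 tested). No share was computed for pairs outside the list, and the members were chosen with earlier results known, so the 12 describe these pairs only. Among the pairs not yet given, those with 1 sign on all 4 arrays were GPX1 minus GPX2 at 0.185 ± 0.0263, TRX1 minus TRX3 at -0.130 ± 0.0924, GRX1 minus GRX2 at 0.105 ± 0.0401, TSA1 minus TSA2 at -0.0706 ± 0.0351 and GRX3 minus GRX4 at -0.0395 ± 0.0199. The pairs CTT1 and CTA1, TRR1 and TRR2, GPX2 and HYR1, and GTO1 and GTO3 changed order on 1 array each. Probe sequences were not used here, so close relatives such as TRX1 and TRX2 or TSA1 and TSA2 may share signal.

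The NADPH that reduces glutathione and thioredoxin comes from the pentose phosphate pathway and a few dehydrogenases and kinases. Of 13 such genes 4 fell (30.8%) and 2 rose (15.4%), beside 21.7% and 22.5% of all genes tested. Their median was -0.0247, and it lay at -0.0085, -0.0510, -0.0115 and -0.0161 without replicates 1 to 4 in turn. ZWF1, the glucose-6-phosphate dehydrogenase that opens the pathway, had -0.209, -0.158, -0.230 and -0.191, a mean of -0.197 ± 0.0308 (adjusted p = 0.00055 in limma). ALD6, the cytosolic acetaldehyde dehydrogenase that also makes NADPH, had a mean of -0.181 ± 0.0845 (adjusted p = 0.0037). POS5, the mitochondrial NADH kinase, rose most of the 13, with 0.320, 0.402, 0.381 and 0.321 and a mean of 0.356 ± 0.0418 (2.27-fold higher if base 10; adjusted p = 6.1e-05). SOL3, a 6-phosphogluconolactonase, had a mean of 0.157 ± 0.0786 (adjusted p = 0.0057).

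Of 15 further genes for thiol repair, glutathione transport and breakdown, cysteine supply and copper delivery, 7 fell (46.7%) and 1 rose (6.67%), with a median of -0.0281. SRX1, the sulfiredoxin that repairs over-oxidized Tsa1, had -0.148, -0.263, -0.109 and -0.140, a mean of -0.165 ± 0.0676 (adjusted p = 0.0033 in limma). CYS3, the cystathionine gamma-lyase that makes cysteine, had a mean of -0.147 ± 0.0429 (adjusted p = 0.0026). Both glutaredoxins of the early secretory pathway were called, in opposite directions: GRX7 had 0.200 ± 0.0267 (adjusted p = 0.00048) and GRX6 had -0.136 ± 0.0247 (adjusted p = 0.0023). The number of falls was 4 without replicate 3 and 3 without replicate 4.

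**Figure D3:**
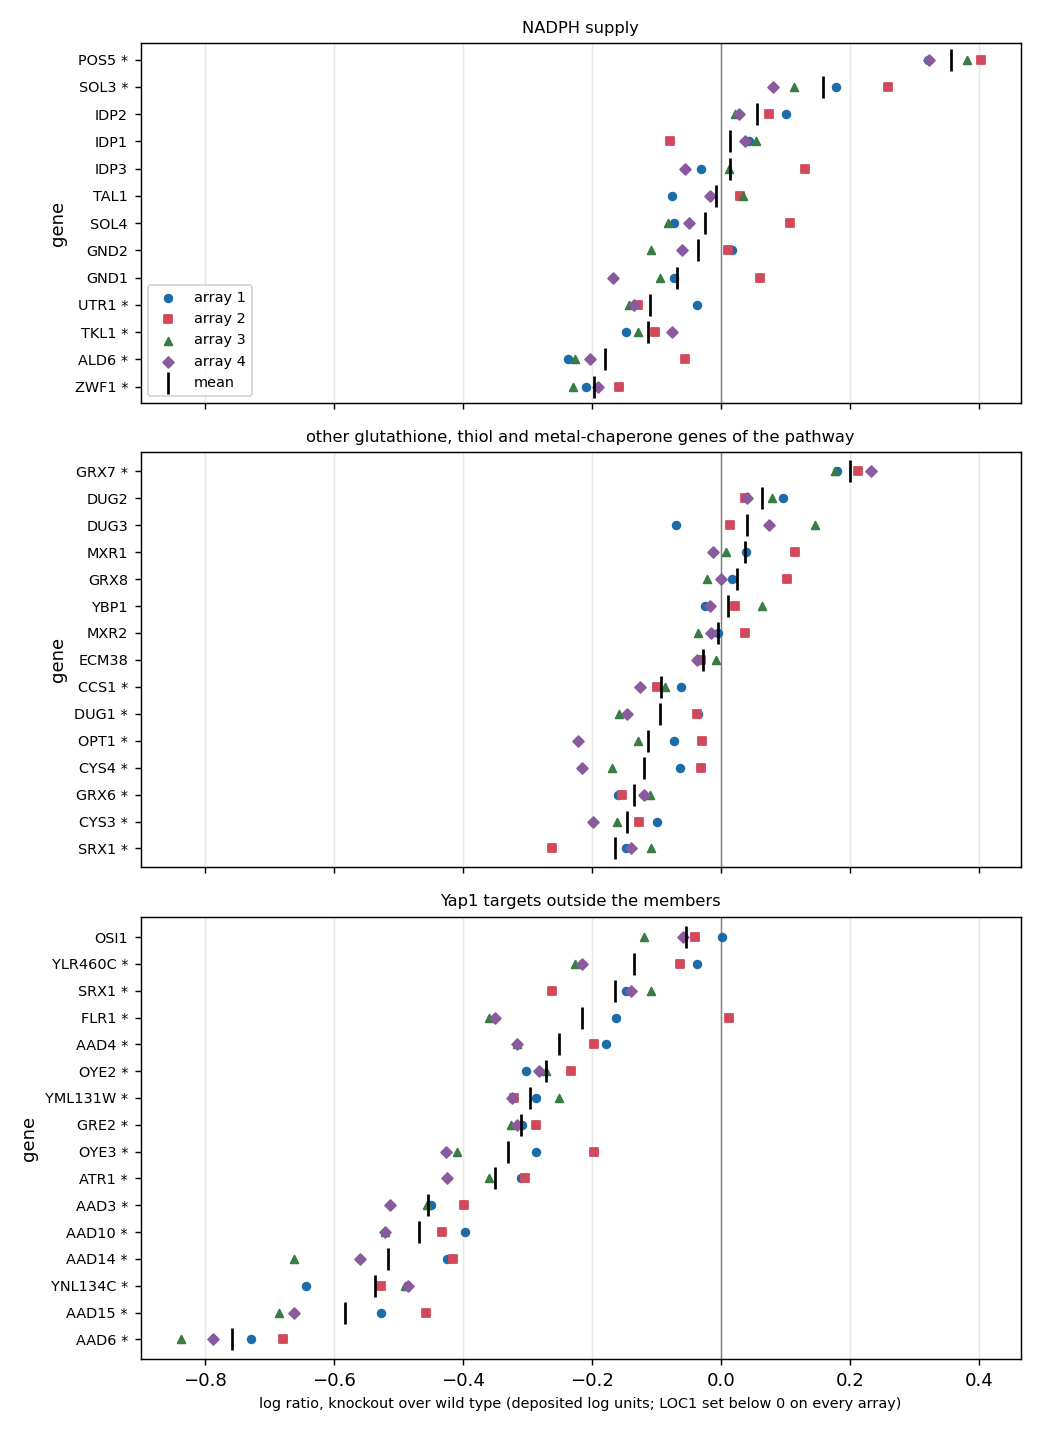
Log ratios on arrays 1 to 4 (points, deposited log units, LOC1 set below 0) and their means (black bars) for 3 lists of other genes of the pathway; an asterisk marks adjusted p under 0.05 in limma over all genes. The means of all 16 Yap1 targets lie below 0, from -0.758 for AAD6 to -0.0546 for OSI1.

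Of 16 known or reported Yap1 targets outside the 34 genes, 15 fell (93.8%) and 0 rose, beside 21.7% and 22.5% of all genes tested. The median was -0.320, beside 0.0019 for all genes tested. Without replicates 1 to 4 in turn, 14, 15, 13 and 13 fell. FLR1, counted among the 15, had -0.163, 0.0114, -0.359 and -0.351 on arrays 1 to 4 (adjusted p = 0.018 in limma). The list was written with the falls of AAD6 and AAD15 already known, so it is not independent evidence of its direction. SRX1 stands in this list as well. AAD6, a putative aryl-alcohol dehydrogenase, had -0.728, -0.678, -0.837 and -0.788 on arrays 1 to 4, with a mean of -0.758 ± 0.0693 (5.73-fold lower if base 10; adjusted p = 1.4e-05 in limma). Its relatives AAD15 and AAD14 had means of -0.583 ± 0.109 and -0.516 ± 0.118, and YNL134C had -0.537 ± 0.0732. The AAD genes are relatives that may share signal, and their sequences were not compared here. Without the 6 of them, a count made after the values were seen, 9 of 10 fell, with a median of -0.284. These 10 come from the same list, chosen with earlier results of these data known, so their count is not independent evidence either. OSI1 (YKL071W) was the 1 target that did not pass, at -0.0546 ± 0.0501 (adjusted p = 0.12). The fall of the targets stood beside YAP1 mRNA values on either side of 0. Yap1 protein was not measured, and the cause of the fall was not tested.

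**Figure D4:**
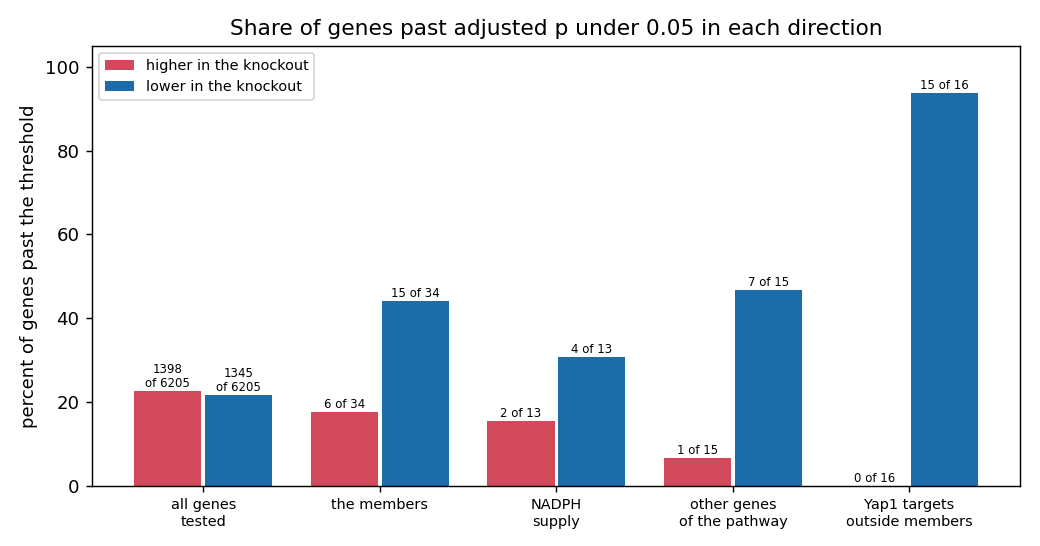
Percent of genes called higher (red) and lower (blue) at adjusted p under 0.05 in limma, with counts above the bars, for all genes tested, the 34 genes and the 3 further lists. Falls made up 21.7% of all genes tested, 44.1% of the 34 genes and 15 of 16 Yap1 targets.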

How the data were processed

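The authors' deposited table held 1 log ratio per gene and array, taken here as log10 from the values. Background correction, normalization, log base and direction are not stated in the labels or the file. Deposited column medians were 0.007, -0.0107, 0.0012 and 0.0119, and no centring was applied. Each array was turned so that LOC1 was below 0 (arrays 2 and 4). After 3 control rows were left out, 6205 of 6207 gene rows had at least 3 values and were tested in limma 3.58.1 (R 4.3.3). Its lmFit and eBayes gave each gene's mean a two-sided test against 0, adjusted by Benjamini-Hochberg at a threshold of 0.05. SDs are over 4 arrays, whose number limits the precision. Spot intensities were not used here. Pairs were compared by exact sign-flip permutation tests. Names came from RefSeq R64 (34 of 34 members and 43 of 43 list genes matched). Members, classes and lists were chosen with earlier results of these data known. Values on every array are given for members past the threshold, and from each list up to 4 genes with the largest changes past it. Promoter motifs planned for counting were not analysed here. Alternatives were centring, scaling, another variance model, complete rows, values at the limit, leaving out each array, pairs of arrays, turning by dye labels, a minimum size and, chosen after seeing the data, a term for the deposited orientation.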

Additional observations from a re-analysis of the deposited data

Results flagged for a closer look

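In 5 of the 77 genes examined, 1 array stood apart from the other 3 by a gap that was large against the whole range of the 4 values, which chance gives in about 1 of 20 genes. Among the 34 genes, GRX4 had 0.135 on array 2 and between -0.0092 and 0.0113 on the others, and GTO1 had 0.0508 on array 4 and 0.104 to 0.108 on the others. Among the further genes, SOL4 had 0.107 and IDP1 had -0.0796 on array 2, and UTR1 had -0.0372 on array 1.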

How the results depend on the processing

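Centring, scaling, the other variance model, complete rows only, values at the limit left out and arrays 3 and 4 only gave 6 rises and 15 or 16 falls among the 34 genes, and the orientation term gave 5 and 15. The 6 rises on arrays 3 and 4 only were not all the same genes. There GRX1 (adjusted p = 0.0193 in limma) and TRX3 (adjusted p = 0.0362) passed, and GRX5 (adjusted p = 0.105) and GTO1 (adjusted p = 0.0535) did not. Without replicate 1, GRX1 passed and GRX5 did not. Leaving out 1 array gave 3 to 6 rises, with the 3 without replicate 3, and 13 to 16 falls. Arrays 1 and 2 only gave 1 rise and 8 falls, turning by the dye labels 0 and 0, and a size of at least 0.1 log units 3 rises and 14 falls. The 9 calls of GSH1, GLR1, TRX2, AHP1, PRX1, SOD2, YCF1, GTT2 and ECM4 held under every alternative run on single genes, and 16 of 21 held without each array in turn. Those alternatives leave out the minimum size and the turning by the dye labels, under which 0 of the 34 passed. Apart from the dye labels, shares over all genes are not given for the alternatives. The calls lost or kept here therefore cannot be set against those of the whole table. In the thiol list, falls numbered 3 to 7 and the median lay between -0.0346 and -0.0249 without 1 array. Signs reversed only in genes that had not passed. On arrays 1 and 2 only, GRX3 was at 0.0316, TRX3 at -0.0580, DOT5 at 0.0060, YAP1 at -0.0024, SKN7 at 0.0148 and GTO3 at -0.0472. On arrays 3 and 4 only, GRX2 was at 0.0051. Without 1 array, GRX2 ranged from -0.0658 to 0.0052, GRX3 from -0.0365 to 0.0125, TRX3 from -0.0159 to 0.0385, DOT5 from -0.0259 to 0.0144, SKN7 from -0.0543 to 0.0075 and GTO3 from -0.0135 to 0.0401. The cause of these shifts was not tested. Each array already pairs a knockout with a wild-type culture, and with 1 group of ratios no further replicate block could be fitted.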
